A study of Arabidopsis thaliana with 15 samples.

Results

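The genes described here were 10 genes of Arabidopsis thaliana: the ethylene response factors ERF1, ERF1A, ERF2, ERF5, ERF6, ERF104 and ORA59 and the defence genes PDF1.2, HEL and HCHIB. They were chosen by gene identifier, 10 of the 32833 identifiers in the count table, and all 10 passed the filter on low counts. RNA-seq was carried out on aboveground parts of Col-0 plants that were 6 weeks old when they were sprayed, collected 96 h later. The groups were mock (phosphate-buffered saline) and Williamsia sp. Leaf354, a non-pathogenic leaf bacterium, at 100000 (W5), 1000000 (W6), 10000000 (W7) and 100000000 (W8) CFU per ml, with 3 libraries each. Material of 2 plants from separate boxes was pooled for each library, so the replicates of a group were different plants. All plants, mock included, were raised under sterile conditions on mineral litter in closed boxes.

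Ethylene response factors are transcription factors with an AP2/ERF domain, and those described here belong to the group that activates transcription through the GCC box of defence gene promoters. ERF1 and ORA59 integrate ethylene and jasmonate signals, while ERF104 and ERF6 are known targets of immune MAP kinases. Their best known output genes encode the plant defensin PDF1.2, the hevein-like chitin-binding protein HEL (PR4) and the basic chitinase HCHIB (PR3).

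Libraries held 17811560 to 21870246 counts, and levels are given as CPM, counts scaled to a common library total with the TMM method. Mock replicate 3 stood apart from mock replicates 1 and 2. On the component that held 49.7% of the variance it scored 19.4, against -42.4 and -39.8, and within the W7 range of -3.94 to 25. On the next component, with 9.17% of the variance, it scored 50, and all other libraries ran from -15.7 to 10.9. It was thus unlike the W7 libraries there. For that reason the comparisons of the 10 genes with mock are given with and without it. The 5 leaf markers summed to 24800 to 27700 CPM in W8 and to 33100 to 40800 CPM in mock; the part of this shift in the changes at W8 was not tested. Of the 5 root markers, 3 or 4 were at 0 in each group and the summed level was at most 0.407 CPM, and the 5 flower markers summed to 2.16 to 5.57 CPM. In these bulk libraries fewer cells of a type and less RNA per cell cannot be told apart.

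All 10 genes had higher CPM in mock replicate 3 than in mock replicates 1 and 2. The ratio of mock replicate 3 to the mean of the other two was 5.46 for ERF1, 5.26 for PDF1.2, 4.88 for ERF6 and 4.66 for ERF1A. It was 2.00 for ERF104, 1.92 for ERF2, 1.67 for ORA59 and 1.49 for ERF5, and smallest for HCHIB (1.31) and HEL (1.27). Mock replicate 3 was the highest of all 15 libraries for ERF1, ERF1A, ERF2 and PDF1.2. W5 replicate 3 was above W5 replicates 1 and 2 for 9 of the 10 genes, all but ERF1, with ratios to their mean of 5.5 for PDF1.2, 1.99 for HEL, 1.75 for ORA59 and 1.70 for HCHIB. The high libraries therefore differed by gene: PDF1.2 was high in both replicates, while ERF1 and ERF6 were high mainly in the mock one. The shares of all genes that were highest in replicate 3 of mock or of W5 were not computed.

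**Figure D1:**
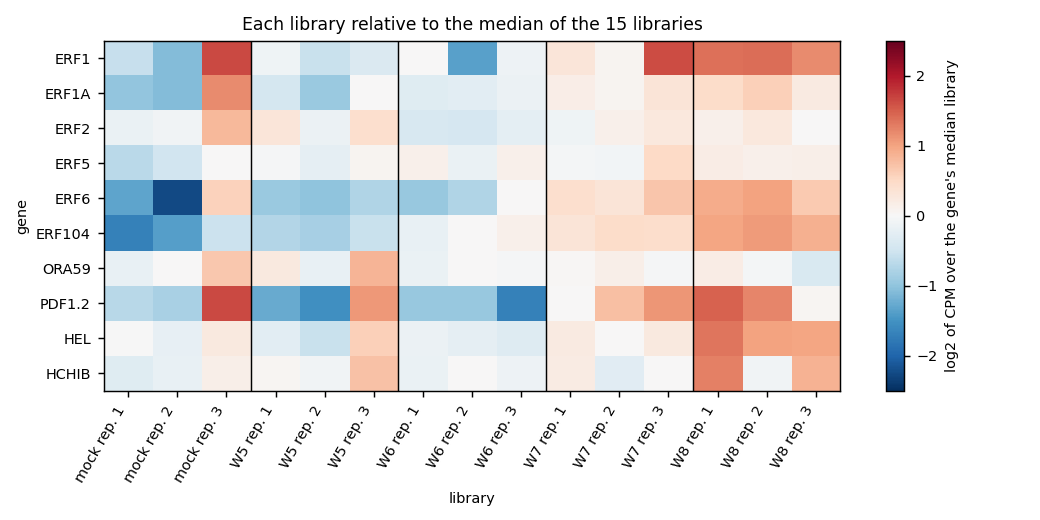
Heat map of the 10 genes (down) in the 15 libraries (across, from mock to W8); color is the log2 of a gene's CPM over its median library. Mock replicate 3 is at 1.64 for both ERF1 and PDF1.2, while mock replicates 1 and 2 are below the median for both genes.

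Per kilobase of exon, HEL was the most abundant of the 10 in W8 and in mock, with 429 ± 58.2 CPM per kb in W8 and 199.5 ± 30.8 CPM per kb in mock (SD, n = 3 each). ERF104 came second in W8, at 37.2 ± 2.29 CPM per kb, and sixth in mock, at 8.66 ± 3.81. Next in W8 was ERF1A, at 32.5 ± 4.27 CPM per kb, and its SD range overlapped that of ERF104. Below it came ERF2 (24.0 ± 2.22), with an SD range that did not overlap that of ERF1A. Then came PDF1.2 (22.4 ± 9.90), ORA59 (11.2 ± 2.13) and HCHIB (6.95 ± 2.98). From ERF2 to HCHIB, the SD range of each gene overlapped that of the next gene down. ERF5 (6.55 ± 0.125), ERF6 (5.69 ± 0.734) and ERF1 (2.74 ± 0.219) closed the order in W8, and these 3 did not overlap within 1 SD. In mock the genes ranked below HEL ran ERF2, ERF1A, PDF1.2, ORA59, ERF104, ERF5, HCHIB, ERF6 and ERF1, from 26.3 to 1.56 CPM per kb, and every neighbour pair among them overlapped within 1 SD.

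**Figure D2:**
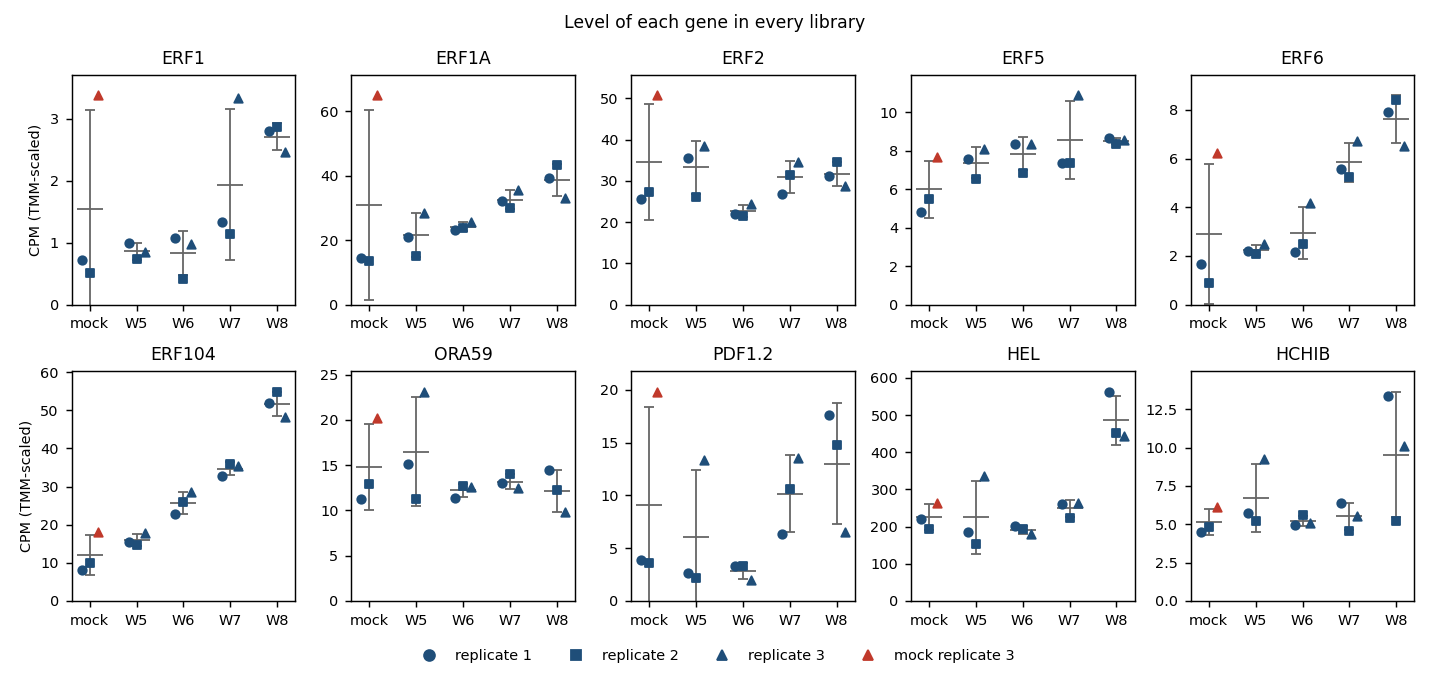
CPM of each gene in each of the 15 libraries, by group from mock to W8, with the group mean (dash) and SD (bars, cut at 0); mock replicate 3 is in red. The ERF104 libraries lie at 48.4 to 54.8 CPM in W8 and at 8.04 to 18.03 CPM in mock, and 2 of the 3 ORA59 libraries of W8 lie within the range of mock.

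ERF104 (AT5G61600), the one gene of the 10 called at 3 densities with all libraries, was higher at W6, W7 and W8 than in mock. Its CPM in replicates 1, 2 and 3 was 8.04, 10.0 and 18.03 in mock, 15.6, 14.7 and 17.8 in W5, 22.8, 26.0 and 28.5 in W6, 32.7, 36.0 and 35.4 in W7, and 51.9, 54.8 and 48.4 in W8. All libraries of a density were above all libraries of the density below it, and the groups from W6 up did not overlap mock. Against mock, the log2 fold change was 0.40 ± 0.227 in W5, 1.08 ± 0.221 in W6, 1.51 ± 0.219 in W7 and 2.09 ± 0.218 in W8 (SE, n = 3 per group). Adjusted over all genes in edgeR's quasi-likelihood test, p was 0.858, 0.0391, 0.00108 and 2.05e-05 in the same order. With mock replicate 3 left out, ERF104 rose at all 4 densities, by 0.82 ± 0.121 in W5 (adjusted p = 0.00101), 1.51 ± 0.118 in W6 (4.72e-08), 1.95 ± 0.117 in W7 (3.12e-10) and 2.52 ± 0.117 in W8 (4.32e-12). The W6 call was lost in each of the 14 fits that left out 1 of the other libraries, with adjusted p of 0.058 to 0.181. In a fit of the 2 compared groups alone adjusted p was 0.468 at W6 and 0.0563 at W7.

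ERF6 (AT4G17490), a close relative of ERF5 that acts downstream of the same kinases, had its highest inoculated libraries at W7 and W8. Its CPM was 1.68, 0.868 and 6.21 in mock, 2.20, 2.07 and 2.48 in W5, 2.16, 2.48 and 4.17 in W6, 5.56, 5.23 and 6.73 in W7, and 7.92, 8.41 and 6.51 in W8. Each W8 library was above each mock library, with mock replicate 3 just below the lowest of them, and every W7 library was above every W6 library. The log2 fold change of W8 against mock was 1.36 ± 0.506 and did not pass (adjusted p = 0.0579, edgeR), although DESeq2 called it (adjusted p = 0.0365). Without mock replicate 3 it was 1.21 ± 0.304 in W6 (adjusted p = 0.0384), 2.21 ± 0.291 in W7 (2.31e-05) and 2.59 ± 0.288 in W8 (6.6e-07), against -0.03, 0.97 and 1.36 with that library. ERF6 had 17 to 179 reads in a library, so its lowest libraries rest on few reads.

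ERF1A (AT4G17500), an activator that binds the GCC box, showed a difference from mock that depended on 1 library. Its CPM was 14.4, 13.5 and 64.9 in mock, 21.0, 15.1 and 28.5 in W5, 23.1, 23.7 and 25.7 in W6, 32.1, 30.0 and 35.7 in W7, and 39.4, 43.3 and 33.2 in W8. Mock held both the lowest libraries and the highest one, and all W7 libraries were above all W6 libraries. In W8 against mock the log2 fold change was 0.31 ± 0.505 (adjusted p = 0.684, edgeR). Without mock replicate 3 it was 1.23 ± 0.218 in W7 (adjusted p = 0.00265) and 1.48 ± 0.218 in W8 (adjusted p = 0.000246).

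ERF2 (AT5G47220), the closest relative of ERF1A among the 10, was not called in any comparison with mock. The CPM of ERF2 was 25.6, 27.2 and 50.7 in mock, 35.6, 26.1 and 38.3 in W5, 21.9, 21.6 and 24.3 in W6, 26.9, 31.3 and 34.6 in W7, and 31.3, 34.6 and 28.8 in W8. The W6 libraries were below those of every other group, without overlap. W6 against mock gave -0.62 ± 0.245 on the log2 scale (adjusted p = 0.406), and -0.22 ± 0.141 without mock replicate 3 (adjusted p = 0.502). In W8 against mock the value was -0.13 ± 0.24 (adjusted p = 0.713, edgeR). It changed sign without mock replicate 3, to 0.26 ± 0.14 (adjusted p = 0.161). W7 against W6 gave 0.45 ± 0.246 (adjusted p = 0.347), which passed without mock replicate 3 (0.46 ± 0.125, adjusted p = 0.0435).

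ERF5 (AT5G47230), like ERF6 a factor tied to pattern-triggered immunity, rose in W8 by a small amount. Its CPM was 4.80, 5.52 and 7.67 in mock, 7.56, 6.52 and 8.09 in W5, 8.36, 6.87 and 8.33 in W6, 7.38, 7.36 and 10.9 in W7, and 8.69, 8.36 and 8.54 in W8. The W8 libraries were close together and all above mock, and those of W5 to W7 overlapped mock. W8 against mock gave 0.50 ± 0.172 (adjusted p = 0.0287, edgeR), and 0.73 ± 0.172 without mock replicate 3 (adjusted p = 0.00218). The call was lost without mock replicate 1 (adjusted p = 0.142) or 2 (0.107), or W8 replicate 1 (0.0708), 2 (0.0567) or 3 (0.0591). Upper-quartile scaling (0.0518) and a fit of W8 and mock alone (0.0531) also ended it. At W7 the gene passed without mock replicate 3 (0.73 ± 0.173, adjusted p = 0.00545) or W7 replicate 1 (0.60, adjusted p = 0.0486), and missed with all libraries (0.50 ± 0.172, adjusted p = 0.0621).

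The integrators ERF1 (AT3G23240) and ORA59 (AT1G06160) are factors through which ethylene and jasmonate act together. ERF1 was the least abundant of the 10, with 9 to 74 reads in a library. The CPM of ERF1 was 0.726, 0.511 and 3.38 in mock, 1.00, 0.735 and 0.846 in W5, 1.08, 0.421 and 0.986 in W6, 1.33, 1.14 and 3.34 in W7, and 2.80, 2.87 and 2.46 in W8. Mock replicate 3 was above all W8 libraries, and the other mock libraries were below all of them. The log2 fold change of W8 against mock was 0.79 ± 0.579 (adjusted p = 0.325, edgeR), against 2.13 ± 0.463 (adjusted p = 0.00103) without mock replicate 3. At W7 it was 0.29 ± 0.592 (adjusted p = 0.81), against 1.63 ± 0.473 (adjusted p = 0.0193) without that library.

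ORA59, like ERF2, had a lower mean in W8 than in mock with all libraries, which did not hold without mock replicate 3. None of the ORA59 differences passed. ORA59 had 11.3, 12.9 and 20.2 CPM in mock, 15.1, 11.3 and 23.1 in W5, 11.4, 12.8 and 12.6 in W6, 13.0, 14.04 and 12.5 in W7, and 14.4, 12.3 and 9.80 in W8. Replicate 3 of mock and of W5 were its highest libraries, and the groups overlapped throughout. W8 against mock gave -0.28 ± 0.264 (adjusted p = 0.447, edgeR), and 0.02 ± 0.247 (adjusted p = 0.966) without mock replicate 3.

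Among the output genes, HEL (AT3G04720) rose at W8 and was not called at W5, W6 or W7. HEL had 221, 194.5 and 264 CPM in mock, 185.5, 152 and 337 in W5, 202, 192.5 and 179 in W6, 261, 223.5 and 264 in W7, and 562, 451 and 445 in W8. All W8 libraries were above every other library, and W5 replicate 3 was the highest of the rest. HEL rose in W8 by 1.103 ± 0.250 against mock (adjusted p = 0.00556, edgeR), and by 1.23 ± 0.291 (adjusted p = 0.00793) without mock replicate 3. It was also called by edgeR between neighbouring densities, by 0.96 ± 0.249 in W8 against W7 (adjusted p = 0.0317). That call was lost without W7 replicate 1 (adjusted p = 0.0979), 2 (0.104) or 3 (0.0646), or W8 replicate 1 (0.0949), 2 (0.0802) or 3 (0.0501).

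HCHIB (AT3G12500) rose in W8, with libraries that overlapped. Its CPM was 4.47, 4.85 and 6.12 in mock, 5.71, 5.19 and 9.25 in W5, 4.97, 5.61 and 5.10 in W6, 6.39, 4.59 and 5.55 in W7, and 13.3, 5.21 and 10.07 in W8. W8 replicates 1 and 3 were above all libraries of mock, W6 and W7, and W8 replicate 2 lay within mock. W8 against mock gave 0.89 ± 0.296 (adjusted p = 0.0325, edgeR), and 1.04 ± 0.351 (adjusted p = 0.0352) without mock replicate 3. The call was lost without mock replicate 1 (adjusted p = 0.113) or 2 (0.100), without W8 replicate 1 (0.56, adjusted p = 0.143) or 3 (0.0809), with no filter (0.0529) and in a fit of W8 and mock alone (0.0998). The HCHIB exons shared 24.9% of their 150-base windows with AT3G12502, an antisense gene annotated on the opposite strand. The strand setting of the counting is unknown here. If strand was not used, reads in those shared windows cannot be assigned to 1 of the 2 genes. Of the HCHIB exon bases, 66.9% are its own. AT3G12502 itself had 0 or 1 count in a library.

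PDF1.2 (AT5G44420), the usual reporter of joint ethylene and jasmonate signalling, was widely scattered within mock and W5. PDF1.2 had 3.91, 3.63 and 19.8 CPM in mock, 2.66, 2.20 and 13.4 in W5, 3.30, 3.27 and 1.97 in W6, 6.34, 10.6 and 13.6 in W7, and 17.6, 14.8 and 6.57 in W8. Mock replicate 3 was above every other library, W6 had the lowest mean, and all W7 libraries were above all W6 libraries. W8 against mock gave 0.50 ± 0.778 (adjusted p = 0.67, edgeR), against 1.80 ± 0.786 (adjusted p = 0.105) without mock replicate 3. With both mock replicate 3 and W5 replicate 3 left out, a setting chosen after seeing the data, it was 1.79 with an adjusted p of 0.0137.

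In W5 against mock 0 of the 10 genes were called, where 0.18% of all genes were called. At an unadjusted p under 0.05 the count was also 0, DESeq2 called 0 (0.312% of all genes), and edgeR called 1 when mock replicate 3 was left out, ERF104 (0.307%). In W6 against mock 1 was called, ERF104 (1.28% of all genes), and 2 without mock replicate 3, ERF104 and ERF6 (2.40%). In W7 against mock the count was 1, ERF104 (13.1% of all genes), and without mock replicate 3 it was 5, ERF1, ERF1A, ERF5, ERF6 and ERF104 (19.8%). W8 against mock had 4 called, ERF5, ERF104, HEL and HCHIB, all higher, against 35.5% of all genes called and 18.5% called higher. The count at W8 without mock replicate 3 was 7, with ERF1, ERF1A and ERF6 added, against 38.4% of all genes and 20.5% called higher. Counting calls in either direction, the share at W8 with all libraries was close to that of all genes. All 4 of these calls were higher, where 18.5% of all genes were called higher. All W8 libraries were above all mock libraries for 4 of the 10, ERF5, ERF6, ERF104 and HEL, against 24.3% of all genes. The 4 comparisons with mock share the mock libraries, so they are not independent.

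**Figure D3:**
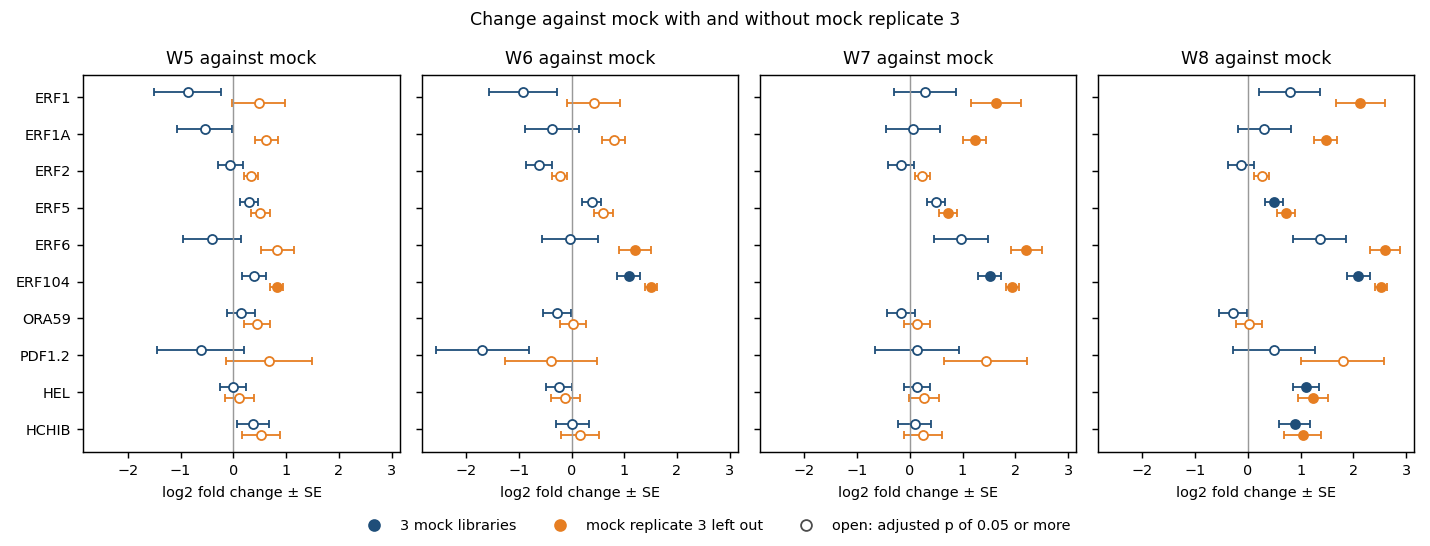
Log2 fold change (SE bars) of each of the 10 genes against mock at W5, W6, W7 and W8, with all 3 mock libraries (blue) and without mock replicate 3 (orange); filled points passed an adjusted p of 0.05. In W8 ERF6 moves to 2.59 without that library, against 1.36 with it, and HEL to 1.23, against 1.103.

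Between neighbouring densities, where mock libraries enter through the filter, the scaling and the estimate of spread, edgeR made few calls with all libraries. In W6 against W5 0 of the 10 genes were called (0.289% of all genes), 2 had an unadjusted p under 0.05 and DESeq2 called 1, ERF104 (0.69, adjusted p = 0.032; 0.713% of all genes). Leaving out mock replicate 3, edgeR also called ERF104 (0.69 ± 0.096, adjusted p = 0.000414; 0.588% of all genes). In W7 against W6 0 were called (2.62% of all genes), 0 had an unadjusted p under 0.05 and DESeq2 called 0 (7.45%). The W7 against W6 count without mock replicate 3 was 3 (6.05% of all genes), ERF2, ERF6 (1.00 ± 0.223, adjusted p = 0.0135) and ERF104 (0.44 ± 0.0911, adjusted p = 0.0088). A fit of W7 and W6 alone called 6 (3.41% of all genes), ERF1A, ERF2, ERF6, ERF104, PDF1.2 and HEL, with adjusted p of 0.0164 to 0.0323. All W7 libraries were above all W6 libraries for 7 of the 10 genes, those 6 and ERF1, against 12.2% of all genes. In W8 against W7 1 was called, HEL (12.1% of all genes), and without mock replicate 3 it was joined by ERF104 (0.57 ± 0.0881, adjusted p = 2e-04; 15.6% of all genes). ERF104 also passed without mock replicate 1 (adjusted p = 0.029) and in a fit of W8 and W7 alone (0.000622). DESeq2 called 3 in W8 against W7 (13.7% of all genes), HEL, ERF104 (0.57, adjusted p = 0.0163) and HCHIB (0.79, adjusted p = 0.036). HCHIB passed in edgeR without W8 replicate 2 (1.09, adjusted p = 0.00687).

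Any difference among the 5 groups was called for ERF104 (adjusted p = 8.53e-05) and HEL (0.00682), 2 of 10 genes against 32.9% of all genes. The count without mock replicate 3 was 7, with ERF1 (0.000725), ERF1A (0.00127), ERF2 (0.0119), ERF5 (0.0145) and ERF6 (5.13e-07) added, against 36.7% of all genes. Some other single libraries moved it too: without mock replicate 2 ERF6 was called (0.0118), and HCHIB was called without W5 replicate 3 (0.0471) or W8 replicate 2 (0.00193).

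The slope over log10 density, fitted on the 12 inoculated libraries, uses no mock library. For 5 of the 10 genes it was called, all rising with density, against 34.7% of all genes called and 19.4% called rising. Per 10-fold higher density the log2 level rose by 0.63 ± 0.0703 for ERF6 (adjusted p = 3.42e-06, edgeR), 0.62 ± 0.127 for ERF1 (0.00098) and 0.55 ± 0.0296 for ERF104 (1.32e-09). The slope was 0.37 ± 0.104 for HEL (0.0174) and 0.30 ± 0.0545 for ERF1A (0.000861). ERF104 had the smallest relative error of the 5, and its calls and those of ERF6, ERF1 and ERF1A held without any 1 of the 12 libraries. The HEL slope was 0.31 with an adjusted p of 0.0544 without W8 replicate 1. The PDF1.2 slope was 0.49 ± 0.236 (adjusted p = 0.138), and 0.93 (adjusted p = 0.00255) without W5 replicate 3. HCHIB (0.17 ± 0.114, adjusted p = 0.279), ERF5 (0.07 ± 0.0459, 0.229), ERF2 (0.01 ± 0.0674, 0.892) and ORA59 (-0.12 ± 0.0685, 0.193) did not pass.

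**Figure D4:**
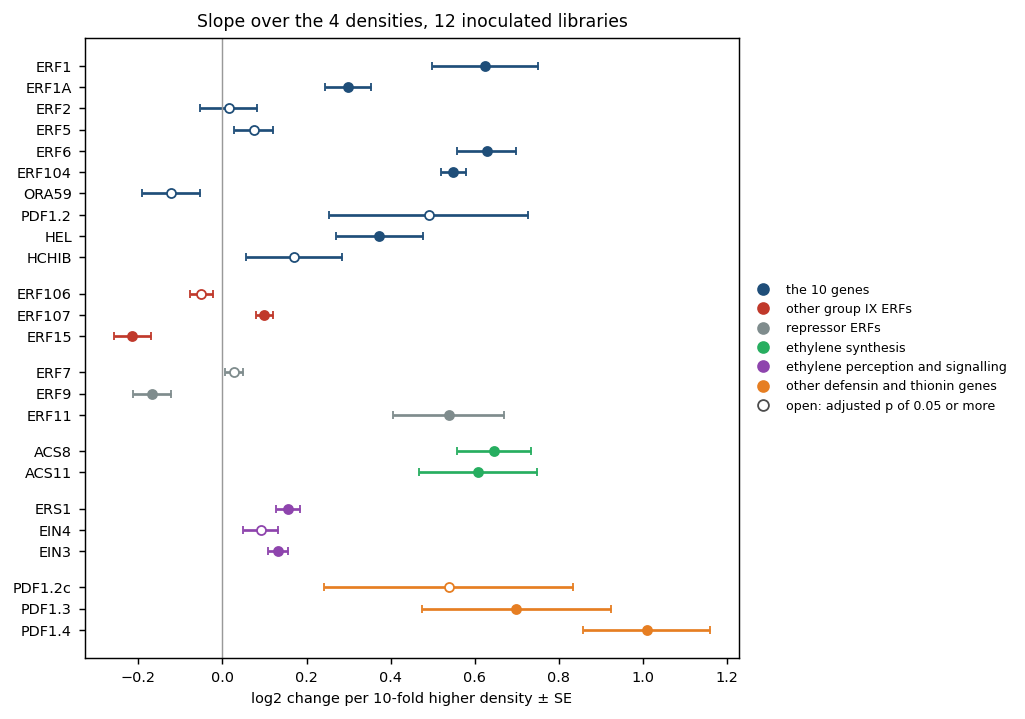
Slope of log2 level per 10-fold higher density over the 12 inoculated libraries (SE bars), for the 10 genes and 14 genes of the 5 related lists; filled points passed an adjusted p of 0.05. ERF6, ERF1 and ERF104 lie between 0.55 and 0.63, and ORA59 is at -0.12.

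The genes lie on chromosomes 1, 3, 4 and 5, and 2 pairs lie close together in the TAIR10.1 annotation. ERF1A and ERF6 lie 5041 bases apart on chromosome 4 with 0 genes between them, and ERF2 and ERF5 lie 6924 bases apart on chromosome 5 with 2 genes between. ERF104 is next to ERF107, 832 bases away, and PDF1.2 is next to PDF1.2c, 1211 bases away. Coding sequences were 68.9% identical between ERF5 and ERF6, 64.7% between ERF1A and ERF2 and 53.6% between ERF1 and ORA59. In the 2 pairs that lie close together, ERF6 had a slope of 0.63 and ERF1A of 0.30, while ERF5 and ERF2 had slopes of 0.07 and 0.01. No test of these differences between genes was made.

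The 300 bases before the annotated gene start were searched for 3 motifs on both strands: the GCC box that ethylene response factors bind (GCCGCC), the core of the W box bound by WRKY factors (TTGAC) and the G box bound by bZIP and bHLH factors (CACGTG). The GCC box was found in 2 of the 10 windows, ORA59 and PDF1.2, and in 2.26% of the windows of 27443 protein-coding genes. TTGAC was found in 3 of 10 (ERF1A, ERF2 and ERF5; 50.4% of all windows) and CACGTG in 3 of 10 (ERF1A, ERF2 and ORA59; 7.09% of all windows). The GCC box began 230 bases before the start of ORA59 and 222 bases before that of PDF1.2. Windows are from the RefSeq sequence and annotation of TAIR10.1, while the count table carries no coordinates and its build is TAIR10 per the submitters' processing notes. Shown first are the windows with a GCC box, at chr1:1882607-1882906 on the plus strand for ORA59 and chr5:17907639-17907938 on the minus strand for PDF1.2. They are read towards the gene, with motifs in capitals.
ORA59: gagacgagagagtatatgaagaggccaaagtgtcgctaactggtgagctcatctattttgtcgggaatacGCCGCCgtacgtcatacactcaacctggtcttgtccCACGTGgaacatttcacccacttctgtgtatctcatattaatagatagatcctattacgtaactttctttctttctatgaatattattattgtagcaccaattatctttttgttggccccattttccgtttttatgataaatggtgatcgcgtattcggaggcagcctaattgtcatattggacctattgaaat
PDF1.2: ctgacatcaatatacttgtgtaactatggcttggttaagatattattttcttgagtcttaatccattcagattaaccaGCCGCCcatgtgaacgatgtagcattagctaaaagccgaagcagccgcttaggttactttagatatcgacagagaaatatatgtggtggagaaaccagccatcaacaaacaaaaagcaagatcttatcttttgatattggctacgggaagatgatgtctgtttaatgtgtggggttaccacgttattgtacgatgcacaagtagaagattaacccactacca

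ERF1A and ERF2 shared the longest identical stretch among the 45 pairs of windows, 26 bases that hold the G box, beginning 88 bases before ERF1A and 41 bases before ERF2. The next longest stretch in any pair was 11 bases. Pearson's r of log2 CPM of ERF1A and ERF2 was 0.639 over the 15 libraries and 0.941 within groups, with depth and plant pool shared by both genes. Within groups r was also 0.922 between ERF1A and ERF104 and 0.905 between ERF2 and ERF104, and mock replicate 3 was the highest library of both ERF1A and ERF2. Their windows are shown to place this stretch, at chr4:9758903-9759202 on the plus strand for ERF1A and chr5:19172957-19173256 on the minus strand for ERF2, followed by the shared stretch itself. Motifs are in capitals.
ERF1A: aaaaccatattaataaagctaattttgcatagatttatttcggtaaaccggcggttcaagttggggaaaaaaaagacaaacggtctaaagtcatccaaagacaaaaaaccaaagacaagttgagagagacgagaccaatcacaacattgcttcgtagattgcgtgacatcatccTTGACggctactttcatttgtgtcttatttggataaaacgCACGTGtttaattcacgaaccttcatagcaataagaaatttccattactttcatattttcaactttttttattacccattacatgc
ERF2: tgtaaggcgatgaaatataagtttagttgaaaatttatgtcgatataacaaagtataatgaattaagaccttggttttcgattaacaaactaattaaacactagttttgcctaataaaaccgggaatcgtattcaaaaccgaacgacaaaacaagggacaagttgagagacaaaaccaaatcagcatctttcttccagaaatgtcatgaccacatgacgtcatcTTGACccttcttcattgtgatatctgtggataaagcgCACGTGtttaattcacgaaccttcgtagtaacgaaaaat
shared stretch: cgCACGTGtttaattcacgaaccttc

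The window of ERF104, the one gene of the 10 called at 3 densities with all libraries, held none of the 3 motifs, and lies at chr5:24767733-24768032 on the minus strand. The windows of ERF1, ERF6, HEL and HCHIB held none of the 3 motifs either, so this was not particular to ERF104. The ERF104 window is printed for comparison with those above and has no capitals.
ERF104: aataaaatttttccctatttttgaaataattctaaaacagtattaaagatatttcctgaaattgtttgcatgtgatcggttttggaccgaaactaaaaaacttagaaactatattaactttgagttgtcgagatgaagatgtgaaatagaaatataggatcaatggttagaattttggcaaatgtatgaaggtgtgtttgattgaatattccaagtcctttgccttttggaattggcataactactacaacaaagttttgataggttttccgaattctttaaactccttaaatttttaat

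Levels of the 10 genes over the 15 libraries were set beside each other by Pearson's r of log2 CPM (prior count 2). These values are descriptions, and each pair shares libraries and depth. The ethylene response factors ERF1A and ERF6 had r = 0.878, ERF6 and ERF104 0.867, ERF1 and ERF6 0.858 and ERF1 and ERF1A 0.835. ORA59 was least like them, at 0.0449 with ERF6, 0.0851 with ERF1 and -0.157 with ERF104, and most like ERF2, at 0.710. Once group means were removed, ORA59 had r = 0.882 with PDF1.2, 0.807 with HEL and 0.792 with ERF2. It had 0.79 with ERF1A, 0.757 with ERF104, 0.574 with ERF6 and 0.405 with ERF1. PDF1.2 and HEL had r = 0.761 over all libraries and 0.813 within groups. For all of these genes but ERF1, mock replicate 3 and W5 replicate 3 were the highest libraries of their groups. Within-group r without these libraries was not computed.

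Of all other genes tested, those most like each of the 10 over the 15 libraries were found by the same measure. BT4 had r = 0.991 with ERF104, and AT3G49790 and AT2G36780 had 0.980 and 0.977. For ERF1 they were NAC102 (0.950), ERF11 (0.940) and the zinc finger gene STZ (0.939), and STZ (0.935) was also among the 3 for ERF1A, after AT1G51820 (0.937) and before AT5G39580 (0.931). MLO12 (0.944), AT2G36770 (0.942) and CNI1 (0.941) were most like ERF6. ERF2 had CYP94C1 (0.847), an enzyme of jasmonate breakdown, AT5G13810 (0.834) and AT2G39650 (0.832), and ERF5 had MSRB8 (0.870), AT3G03180 (0.862) and AIP2 (0.859).

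ORA59 was most like JAZ6 (0.867), a jasmonate repressor gene, then RAP2.9 (0.823) and AT4G16380 (0.793). For HEL they were AT4G16260 (0.967), CYP83B1 (0.966), of indole glucosinolate synthesis, and TSB1 (0.958), a tryptophan synthase gene. PDF1.2 had PDF1.2c (0.966), AT3G23550 (0.886) and TPS04 (0.870), and HCHIB had AT5G23610 (0.875), AT3G15356 (0.815) and MEB2 (0.810). The coding sequence of PDF1.2 is 93.4% identical to that of PDF1.2c, and no 150-base window was identical between them. Reads with mismatches could still have been placed on either copy, so their separate levels are uncertain.

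The other genes of the pathway were read from 5 lists. Of the other group IX factors, 5 of 10 were tested, and in W8 against mock 1 rose and 1 fell, where 35.5% of all genes were called. ERF107, the neighbour of ERF104, had 203, 210 and 202 CPM in W8 and 104, 111 and 126 CPM in mock. It rose by 0.85 ± 0.0677 (adjusted p = 2.96e-08), with no overlap between the groups. ERF107 was already above mock at W5, at 163, 155 and 174 CPM, and its slope of 0.10 ± 0.0198 (adjusted p = 0.00079) stood beside 0.55 for ERF104. ERF15 fell in W8 by 0.96 (SE 0.129, adjusted p = 1.35e-05), with 8.55, 8.26 and 7.61 CPM in W8 and 18.5, 15 and 14.2 CPM in mock, while ERF106 did not pass (-0.18 ± 0.0747, adjusted p = 0.0637).

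Among the 8 repressor ERFs, which carry the EAR repression motif, 7 were tested and at W8 1 rose and 1 fell (35.5% of all genes called). ERF9 fell by 0.52 (SE 0.140, adjusted p = 0.00694) and ERF7 rose by 0.22 ± 0.0625 (adjusted p = 0.00967). ERF11 had 0.88 ± 0.457 (adjusted p = 0.161) with all libraries, against 1.59 ± 0.413 (adjusted p = 0.00617) without mock replicate 3. The ERF11 libraries were at 5.47, 4.70 and 4.11 CPM in W8 and at 1.96, 1.23 and 4.52 CPM in mock.

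Ethylene synthesis, by ACC synthases (ACS) and ACC oxidases (ACO), had 11 of 13 genes tested, with 2 higher and 1 lower in W8 than in mock (35.5% of all genes called), and 5 higher and 2 lower without mock replicate 3 (38.4%). ACS8 rose by 0.96 ± 0.284 (adjusted p = 0.0134), at 5.43, 6.90 and 5.91 CPM in W8 and 2.23, 3.07 and 4.02 CPM in mock. ACS11 rose by 1.92 ± 0.460 (adjusted p = 0.00305), at 1.13, 3.52 and 3.39 CPM in W8 and 0.559, 0.511 and 1.00 CPM in mock. At these levels the mock libraries rest on few reads for ACS11, and W8 replicate 1 was just above mock replicate 3. The slope was called for 6 of the 11 genes, 5 rising and 1 falling, beside 34.7% of all genes called and 19.4% rising.

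Of 12 genes of perception and signalling 3 rose and 1 fell in W8 against mock (35.5% of all genes called, 18.5% higher). Without mock replicate 3, 4 rose and 0 fell (38.4% called, 20.5% higher). Counting calls in either direction, both counts were near the share of all genes. EIN3, the master transcription factor of the pathway, rose by 0.41 ± 0.0695 (adjusted p = 0.000129), with 180, 202 and 174 CPM in W8 and 137, 132 and 149 CPM in mock. The receptor gene ERS1 rose by 0.54 ± 0.0886 (adjusted p = 0.000117), at 98.7, 110 and 99.2 CPM in W8 and 62.7, 68.3 and 80.8 CPM in mock. EIN4, another receptor gene, had 0.16 ± 0.101 (adjusted p = 0.254).

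Of the other defensin and thionin genes 4 of 6 were tested and 1 rose in W8, where 18.5% of all genes were called higher. PDF1.4 rose by 2.36 ± 0.551 (adjusted p = 0.00353), at 2.80, 5.73 and 2.79 CPM in W8 and 0.279, 0.204 and 1.64 CPM in mock, and without mock replicate 3 by 3.95 ± 0.502 (adjusted p = 3.39e-06). At these levels mock replicates 1 and 2 rest on few reads for PDF1.4. Unlike PDF1.2, its W8 libraries were all above mock. PDF1.2c (0.59 ± 0.885, adjusted p = 0.654) and PDF1.3 (1.02 ± 0.746, adjusted p = 0.325) did not pass. With mock replicate 3 left out they were at 1.84 ± 0.972 (adjusted p = 0.174) and 1.66 ± 0.878 (adjusted p = 0.167), and did not pass either. Of the other genes named from the lists, ERF107, ERF15, ERF7, ERF9, ACS8, ACS11, EIN3 and ERS1 were also called at W8 without that library, and ERF106 and EIN4 were not. The median log2 fold change in W8 was 0.64 over the 10 genes, -0.96 over the group IX list, 0.12 over the repressors, -0.38 over ethylene synthesis, 0.15 over perception and signalling and 0.81 over the defensins and thionins, beside -0.0029 over all genes tested. Without mock replicate 3 the medians of the 10 genes and of the group IX, repressor, synthesis, perception and defensin lists were 1.36, 0.93, 0.08, 0.34, 0.16 and 1.75, beside 0.0078 over all genes tested.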

How the data were processed

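Poly-A RNA of 15 libraries was measured by paired-end RNA-seq, per the labels' protocols. The authors deposited 1 table of raw counts per gene. The submitters' processing notes name TAIR10, featureCounts 1.22.2 and cutadapt 1.9.1, while the aligner, annotation release and strand setting were not given in the sources used here. In R 4.3.3, edgeR 4.0.16 kept 19404 genes (filterByExpr, minimum count 10, minimum total 15), scaled by TMM and fitted group means over all libraries (glmQLFit with robust dispersion, glmQLFTest). The slope used 12 inoculated libraries and 19285 genes. Benjamini-Hochberg adjustment ran over all genes tested, with a threshold of 0.05, and SE was the log2 fold change over the square root of F. Alternatives were other scalings, DESeq2 1.42.0, no filter, single libraries left out, 2-group fits and a replicate block. The fits were tested on simulated data.

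The 10 genes and the lists were chosen with earlier results of these data known. All 10 genes are named. From each of 5 lists up to 3 genes with the smallest unadjusted p for any difference among groups were taken, 1 of which is not reported here, and for each of the 10 genes the 3 others with the highest Pearson correlation. ERF105 was not tested, and all its exon bases in the annotation overlap another gene. Of 32833 identifiers, 32548 matched RefSeq's TAIR10.1. No protein sequences were used here. The closest libraries of a group differed by 3.84 in chi-square per degree of freedom, more than counting error alone gives.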

Additional observations from a re-analysis of the deposited data

How the results depend on the processing

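Of 1930 combinations of gene, comparison and alternative, 1820 kept their side of the threshold, 37 lost a call, 70 gained one and 3 turned round. Sign changes between uncalled values, 79 in all, are among the 1820. The 3 were in W6 against mock: ERF1A was 0.80 with mock replicate 3 and W5 replicate 3 both left out (a setting chosen after seeing the data), and ERF6 was 1.204 in that setting and -0.46 to 1.21 with 1 library left out. The number of the 10 genes called moved as follows, and the cause was not tested. With both libraries left out it was 1 in W5, 3 in W6, 5 in W7 and 8 in W8 against mock. All genes called there were 40, 425, 3709 and 7348, in the same order. The 10 genes gave 1 in W6 against W5, 6 in W7 against W6, 2 in W8 against W7 and 9 for any difference. Beside these, 83, 963, 2872 and 6775 of all genes were called. Fits of the 2 compared groups alone called 0 of the 10 in W6, 0 in W7 and 2 in W8 against mock. All genes called were 145, 1756 and 5956. These fits called 1 of the 10 in W6 against W5, 6 in W7 against W6 and 2 in W8 against W7. All genes called there were 122, 642 and 2503. DESeq2 called 1 of the 10 in W6 against W5, 3 in W8 against W7 and 5 for any difference. Beside these were 114, 2657 and 6764 of all genes. No filter gave 0 of the 10 in W6 against mock, and 235 of all genes. With 1 library left out the number of the 10 called ran against mock from 0 to 1 in W5 and 0 to 2 in W6. It was 1 to 5 in W7 and 2 to 7 in W8. Between neighbouring densities it was 0 to 1 in W6 against W5, 0 to 3 in W7 against W6 and 0 to 2 in W8 against W7. For any difference it was 2 to 7, and for the slope 4 to 6. The ranges over all genes are given below.

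A replicate block gave 2 genes called in W7 against mock, with ERF5 added, and 5 for any difference, and ERF6 passed in W8 against mock (1.57, adjusted p = 0.0221, edgeR). Whether the numbers pair the libraries was not settled by correlations of deviations from the group means. Those of same-numbered libraries ran from -0.305 to 0.32, with 6 of 30 over 0.1 and a median of 0.0449. The median for other numbers was -0.0157, and 7 of 15 libraries correlated best with their own number. Over all genes, calls in W5 against mock were 58 with DESeq2 and 14 in the 2-group fit, beside 35. In W6 against mock they were 145 in the 2-group fit and 425 with both libraries left out, beside 249. In W6 against W5 they were 114 with DESeq2 and 122 in the 2-group fit, beside 56, and in W7 against W6 1052 with DESeq2 and 963 with both libraries left out, beside 508. Leaving out 1 library gave, against mock, 15 to 60 (W5), 147 to 469 (W6), 1120 to 3866 (W7) and 5416 to 7511 (W8). It gave 26 to 115 in W6 against W5, 39 to 1183 in W7 against W6 and 1038 to 3056 in W8 against W7. The range was 4904 to 7178 for any difference and 5446 to 6894 for the slope. Other scalings moved the median log2 fold change by at most 0.0654 in size. The slope and the test for any difference have no 2-group fit.

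Depth limits ERF1 most, with 9 to 74 reads in a library, and ERF6, with 17 to 179.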
